A study of Danio rerio with 54 samples.

Results

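Whole zebrafish larvae that had been at 10 °C for 12 h were compared with larvae that had been there for 6 h. The comparison rests on 6 of the 54 whole-larva RNA-seq samples of the time course, the 3 samples of lc_12h and the 3 of lc_6h, taken by the names of their columns in the deposited table of gene abundance. All larvae were of the wild-type AB strain, were raised at 28 °C in E3 medium, and the labels name no transgene or added agent. Those of both groups were moved directly from 28 to 10 °C at 96 h post fertilization (hpf) and were collected from the cold without rewarming. By the labels they differ in the length of the cold. Since the cold began at 96 hpf, the ages also differ, 102 hpf against 108 hpf. The hour of collection, which the labels do not give, would differ with them. Untreated larvae kept at 28 °C and collected at 102 hpf (ctrl_102hpf) and 108 hpf (ctrl_108hpf), 3 samples each, gave the change over the same ages. The wider study followed larvae through cold exposure and rewarming. The other groups used here include larvae after 1 h (lc_1h), 2 h (lc_2h) and 24 h (lc_24h) of cold. Untreated larvae of 96, 97, 98 and 132 hpf and larvae rewarmed for 24 h after 12 h of cold (re_24h) were used as well. The last are the survivors of 24 h of cold and 24 h at 28 °C, sorted as abnormal (er_ab) or normal (er_nor). Dead larvae were removed before collection, and the number of larvae in a sample and the light conditions are not given in the sources used here.

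Zebrafish cannot hold their body temperature, so cold slows enzymes, transport and development in every tissue of a larva at the same time. Almost all zebrafish tissues hold a circadian clock that light can set directly. In it Clock and Bmal proteins switch on genes for Period and Cryptochrome proteins, which then repress them, while receptors of the Rev-erb and Ror families set the level of Bmal. Immediate early genes such as egr1 and fos encode transcription factors that answer kinase signals without new protein synthesis and are usually shut off again quickly. The NF-kB pathway carries signals of injury and infection from receptors through Traf adaptors to Rel proteins, and among its first targets are its own inhibitors.

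Between 6 h and 12 h of cold, 379 genes rose and 397 fell among the 25387 expressed genes. Of the 52 gene lists examined, those with most risers were the clock (17), NF-kB signaling (11) and inflammation (7), and the one with most fallers was that of immediate early genes (7). Values are in TPM, a unit that corrects for gene length and gives every library the same total. A gene can therefore move because others do. A gene counted as expressed where all samples of some group had at least 1 TPM. It was called when the fold change on the log2(TPM + 1) scale was at least 1.5 and the adjusted p of limma was at most 0.05. On that scale the change of genes at a few TPM is understated, and an error after ± is the standard error unless SD is named. Of all expressed genes 1.49% were called higher and 1.56% lower, and these shares are the background for every list below. The lists were written with earlier results of these data known, so a count above the background is a description and not a test. The changes were small for most of the called genes, since 303 of the 379 risers and 349 of the 397 fallers moved by less than 1 on the log2 scale. Genes that fell were also at lower levels. In 172 of the 397 the higher group had a mean under 5 TPM, against 78 of the 379 risers. The median over all expressed genes was -0.06, and 90% of genes lay between -0.49 and 0.43. The balance of the calls depends on the scaling and on the value added before the log. In TPM 48.8% of them were higher. Scaling by the median of ratios gave 64% (521 higher, 293 lower) and quantile normalization 64.2% (467 higher, 260 lower). Smaller added values moved it the other way. Adding 0.1 in place of 1 gave 470 higher and 843 lower, and adding 0.5 gave 423 and 607.

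The libraries were alike. Correlations of log2(TPM + 1) were 0.979 to 0.981 within the groups and 0.970 to 0.975 between them, mitochondrial genes took 5.05 to 5.50% of TPM, and 23169 to 23644 genes reached 1 TPM in a sample. TPM keeps no read counts, so the depth behind a value is unknown. Standard errors and p-values rest on the spread within groups, estimated over all 54 samples in 1 fit. The labels do not say whether the 3 samples of a group came from separate dishes, so p-values measure only the spread between samples. All 20 genes chosen to mark tissues of a larva, from ckma of muscle to mpx of neutrophils, were above 0 in the 6 samples. None was called, where 3.06% of all expressed genes were. kdrl of endothelium (log2 fold change -0.37, adjusted p = 8.8e-05) and gnat2 of photoreceptors (-0.18, adjusted p = 0.023) passed the p of limma but not the fold. In whole bodies, fewer cells of a type and less RNA per cell cannot be told apart.

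**Figure D1:**
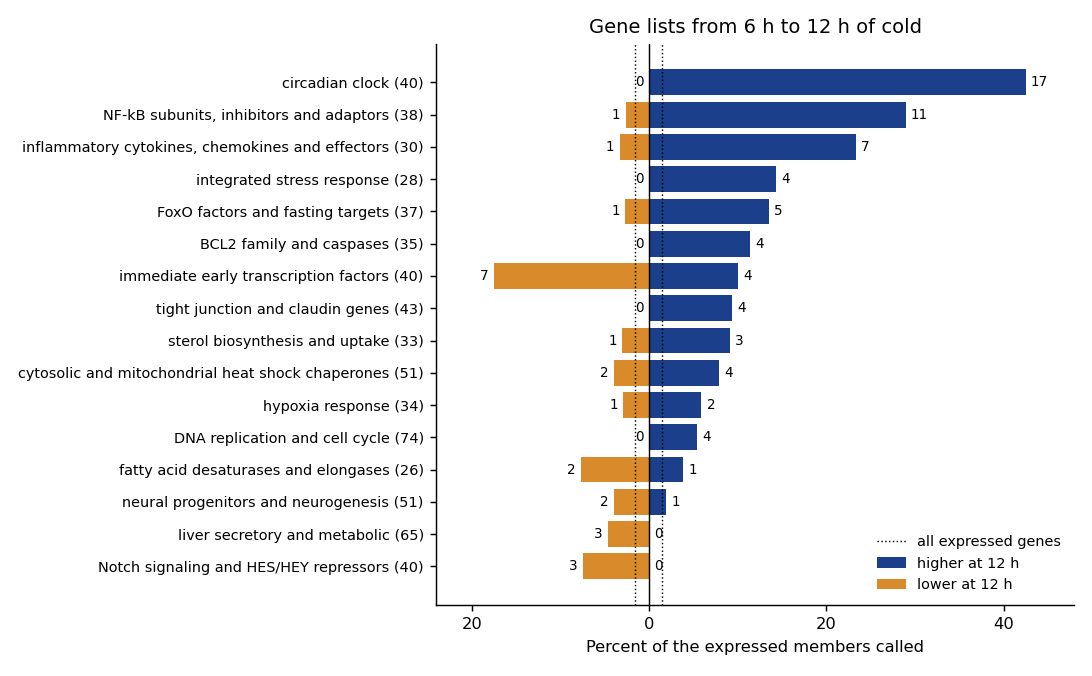
Gene lists from 6 h to 12 h of cold. Bars give the percentage of the expressed members of a list (their number in brackets) that were called higher to the right and lower to the left, with the number of genes at the end of the bar, and dotted lines mark the shares over all expressed genes, 1.49% higher and 1.56% lower. Only lists with 3 or more called members are drawn, so the rest of the 52 lists, with fewer calls, are not shown. The clock list reaches furthest to the right with 17 genes, and the immediate early list furthest to the left with 7.

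Of 40 expressed genes of the circadian clock 17 rose and 0 fell, with a median log2 fold change of 0.53. Leaving out any 1 library gave 16 or 17 risers and 0 fallers. Under scaling by the median of ratios 23 of them were called higher and 0 lower. The rises took in repressors, receptors of both families and output factors. The summed level of the 40 genes was 1525 to 1621 TPM in the lc_6h samples and 2313 to 2501 TPM in the lc_12h samples.

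Among the Period genes, per2, whose product represses Clock and Bmal and whose transcription light can induce in zebrafish, moved most. It stood at 2.49, 2.48 and 2.85 TPM after 6 h and 20.7, 28.6 and 24.0 TPM after 12 h (log2 fold change 2.81 ± 0.09, adjusted p = 3.8e-24), so the levels were 9.37-fold apart. It had stayed near its level at 96 hpf until then, with means of 2.24 TPM at 96 hpf, 2.34 TPM after 1 h and 2.35 TPM after 2 h of cold, while untreated larvae had 15.3 TPM at 98 hpf, and it reached 108 ± 7.31 TPM (SD, n = 3) after 24 h. The other Period genes were higher before the step and rose less. For per3 the values were 32.3, 33.9 and 35.6 TPM after 6 h and 80.1, 86.0 and 78.4 TPM after 12 h (log2 fold change 1.24 ± 0.10, adjusted p = 1.8e-12). per1a rose by 1.12 and per1b by 0.68 on the log2 scale. Among the Cryptochromes, partners of Period in repression, cry2 had 25.0, 30.3 and 31.3 TPM after 6 h and 98.5, 101 and 102 TPM after 12 h (log2 fold change 1.77 ± 0.10, adjusted p = 1.3e-16). No late sample was near the highest early one. cry1a, which like per2 is induced by light in zebrafish, had 16.6, 17.5 and 17.4 TPM after 6 h and 49.0, 47.8 and 48.7 TPM after 12 h (log2 fold change 1.45 ± 0.09, adjusted p = 5.2e-15). cry1b rose by 0.81 and cry3b by 1.17, whereas cry3a (log2 fold change -0.35) and cry4 (-0.10) were not called.

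Receptors of both families that set Bmal levels rose. nr1d4b, of the Rev-erb family of repressors, had 32.9, 32.4 and 31.8 TPM after 6 h and 135, 114 and 135 TPM after 12 h (log2 fold change 1.95 ± 0.15, adjusted p = 1.3e-12). Its copy nr1d4a rose from a mean of 15.1 to 48.1 TPM, and nr1d2b rose by 0.60 on the log2 scale, a call lost without lc_6h replicate 3 or lc_12h replicate 2. The Rev-erb gene nr1d1 had 143, 154 and 155 TPM after 6 h and 139, 152 and 166 TPM after 12 h (log2 fold change 0.01 ± 0.14, adjusted p = 0.97), with fully overlapping groups, although it was far above its untreated mean of 8.07 TPM at 108 hpf. On the activating side rorcb, of the Ror family, had 10.5, 10.7 and 10.4 TPM after 6 h and 38.5, 45.6 and 45.5 TPM after 12 h (log2 fold change 1.93 ± 0.08, adjusted p = 4.9e-20), and rorca rose by 0.72. No gene for the activators Clock and Bmal themselves was called: arntl1a, arntl1b, arntl2, clocka, clockb and npas2 had log2 fold changes from -0.32 to 0.31. Among the output factors that bind D-boxes, dbpa rose by 0.71 on the log2 scale and dbpb by 0.79. Their antagonists nfil3-5 and nfil3-6 rose by 0.81 and 0.96. The symbols rorca, dbpb and nfil3-5 each stand for 2 gene IDs, between which reads could have been split. Values for clock members outside the naming rule were chosen after they were seen.

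**Figure D2:**
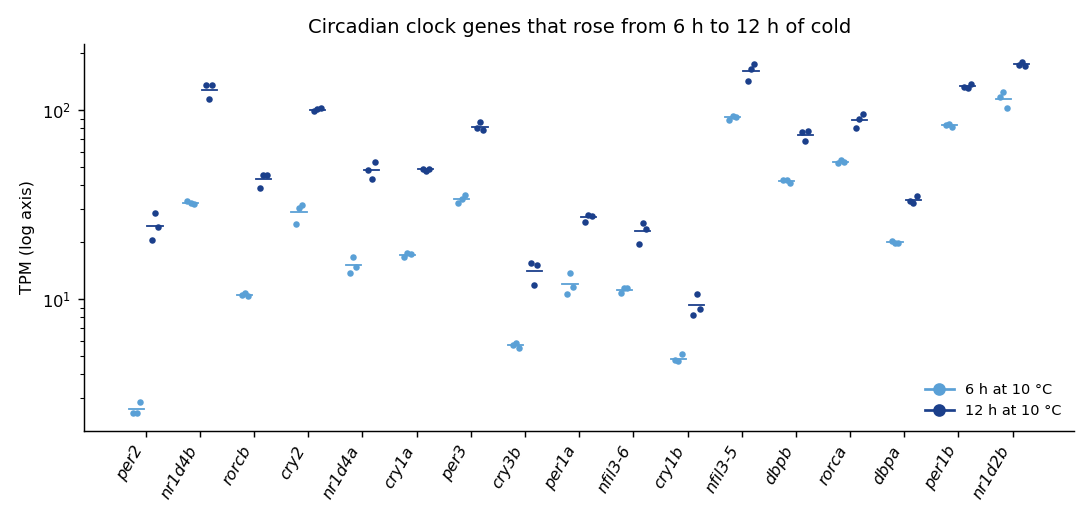
TPM (log axis) of the 17 clock genes that rose, in each of the 3 samples after 6 h (light blue) and after 12 h (dark blue) of cold; bars mark means. In all 17 genes the 2 sets of points are apart, as they are in 364 of the 379 risers and in 34.6% of all expressed genes. The gap is widest in per2, with means of 2.61 and 24.4 TPM.

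Clock genes can also change in untreated larvae, so the same genes were followed from 102 to 108 hpf at 28 °C. There 92 genes (0.362% of those expressed) rose and 47 (0.185%) fell, and hour of day and age cannot be told apart in these larvae. Of the 40 clock genes 6 rose and 3 fell there. The test of the difference, the cold step minus the untreated step, called 1.22% of expressed genes higher and 3.01% lower, and in the clock list it called 15 higher and 2 lower. Leaving out 1 of the 12 libraries at a time gave 14 to 16 higher and 0 to 2 lower, with 0 lower without lc_12h replicate 1 and 1 without ctrl_102hpf replicate 1, ctrl_108hpf replicate 1 or ctrl_108hpf replicate 3. The largest differences in the list were those of rorcb and cry2, which rose in the cold and had negative values in untreated larvae. rorcb went from 11.7 to 8.26 TPM at 28 °C (log2 fold change -0.45, not called), a difference of 2.39 ± 0.12 (adjusted p = 1.3e-17). For cry2 the untreated means were 6.00 and 4.29 TPM and the difference 2.17 ± 0.14 on the log2 scale (adjusted p = 2.6e-14). per1b and cry1b went in opposite directions in the 2 settings. per1b rose by 0.68 on the log2 scale in the cold and changed by -0.90 at 28 °C, falling from 5.70 to 2.61 TPM, and cry1b rose by 0.81 and changed by -0.61.

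Other clock genes moved alike in both settings. nr1d4b rose by 1.95 on the log2 scale in the cold and by 1.54 at 28 °C, from 4.11 to 13.8 TPM, and the difference of 0.41 ± 0.21 did not pass the test (adjusted p = 0.21). The same held for nr1d4a (difference 0.32 ± 0.18 on the log2 scale, adjusted p = 0.25) and cry3b (0.03 ± 0.16, adjusted p = 0.92), although in TPM nr1d4b and nr1d4a started from higher levels in the cold. per2 rose in both, but by 1.73 ± 0.13 more in the cold (adjusted p = 2.8e-12). bhlhe40, a repressor of E-box genes, was not called in the cold (log2 fold change 0.38, below the fold) and fell from 25.1 to 10.4 TPM in untreated larvae, a difference of 1.58 ± 0.11 (adjusted p = 2.4e-13).

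**Figure D3:**
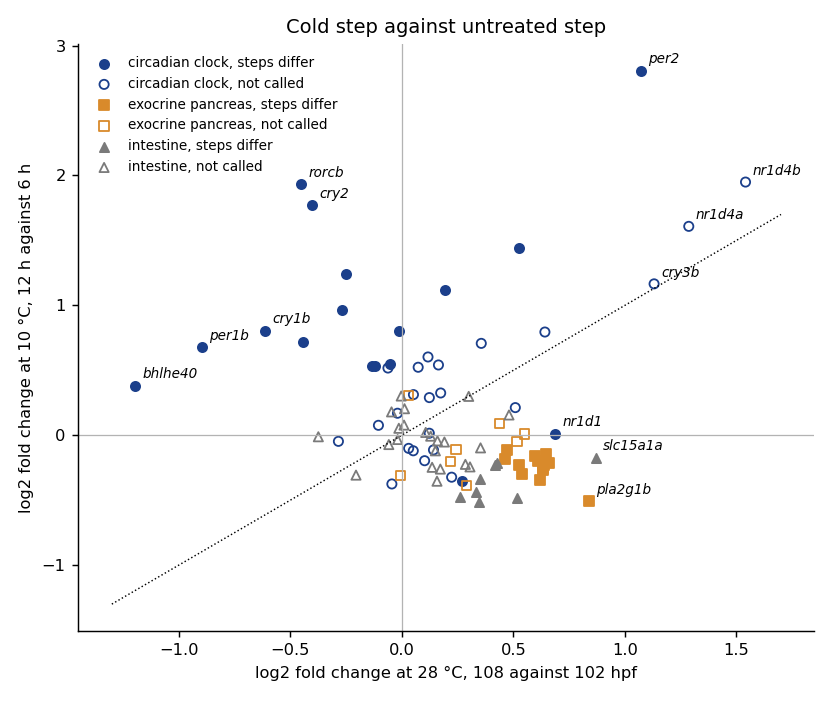
Log2 fold change from 6 h to 12 h of cold (vertical axis) against that from 102 to 108 hpf at 28 °C (horizontal axis) for genes of the clock (circles), exocrine pancreas (squares) and intestine (triangles) lists. Filled symbols passed the test of the difference, and the dotted line marks equal change. 15 clock genes are filled above the line and 2 below it, and 13 pancreas and 8 intestine genes are filled below it.

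Immediate early genes went both ways. Of 40 expressed members 4 rose and 7 fell, where scaling by the median of ratios gave 5 and 4 and quantile normalization 4 and 5, and without lc_12h replicate 1 the fallers numbered 4. Of those that fell, egr1, fosab and npas4a had been called higher after 2 h of cold. egr1, a zinc finger activator induced by growth factor and stress signals, had 183, 188 and 194 TPM after 6 h and 81.1, 86.6 and 101 TPM after 12 h (log2 fold change -1.07 ± 0.09, adjusted p = 3.6e-12). All 3 late samples were below all early ones, and the levels were 2.10-fold apart. Its means had been 13.1, 43.5, 85.6 and 188 TPM at 0, 1, 2 and 6 h, and after 24 h it stood at 98.4 ± 3.21 TPM (SD, n = 3). The table holds 2 gene IDs of this symbol, and the second, with 129.9, 119 and 144 TPM after 6 h and 48.4, 60.7 and 62.2 TPM after 12 h, also fell (log2 fold change -1.19 ± 0.16, adjusted p = 6.1e-07).

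npas4a, an activity-dependent factor of neurons in mammals, had 13.0, 11.4 and 10.9 TPM after 6 h and 3.13, 4.46 and 5.38 TPM after 12 h (log2 fold change -1.28 ± 0.20, adjusted p = 6.8e-06). fosab, the c-Fos gene, had 164, 198 and 172 TPM after 6 h and 89.6, 95.9 and 105 TPM after 12 h (log2 fold change -0.87 ± 0.26, adjusted p = 0.016) and was back at 198 ± 6.73 TPM after 24 h. The fosab call is weaker than that of egr1, since it was lost without lc_6h replicate 2 and without lc_12h replicate 1. jdp2b, a repressor in the AP-1 family, fell by 0.82 on the log2 scale from a mean of 26.9 TPM. egr4 fell by 0.60 on the log2 scale from 20.4 TPM, a call lost under both other scalings and without lc_6h replicate 1, lc_12h replicate 1 or lc_12h replicate 2. ier2b (log2 fold change -0.60), whose product acts in early growth responses, and the nuclear receptor gene nr4a2a (-0.61), both chosen after their values were seen, also fell. The call of ier2b was lost under the median of ratios and without lc_6h replicate 1 or 3 or lc_12h replicate 1 or 2, and that of nr4a2a under both scalings and without lc_6h replicate 3. The 4 risers were other members of the same families. fosl1a, the Fra-1 gene of AP-1, had 20.8, 19.4 and 21.2 TPM after 6 h and 40.4, 46.4 and 55.3 TPM after 12 h (log2 fold change 1.16 ± 0.35, adjusted p = 0.018), and it kept climbing to 162 ± 10.9 TPM after 24 h. Its call was lost without lc_6h replicate 2 or lc_12h replicate 3. nr4a3, of the same receptor family as nr4a2a, rose by 1.00 on the log2 scale, fosl2 by 0.59 (lost without lc_6h replicate 1 or lc_12h replicate 2) and atf3, chosen after its values were seen, by 0.96 from 37.8 to 74.6 TPM. jun (log2 fold change 0.49, adjusted p = 3.1e-09) passed the p but not the fold. junba, junbb, fosaa, fosb and egr3 had log2 fold changes from -0.24 to 0.14 and were not called. In untreated larvae 0 of the 40 genes were called over the same hours, and at 28 °C fosab stayed at 3.38 and 2.58 TPM. After 2 h of cold, against 98 hpf, 18 of the 40 were higher, where 0.906% of expressed genes were.

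**Figure D4:**
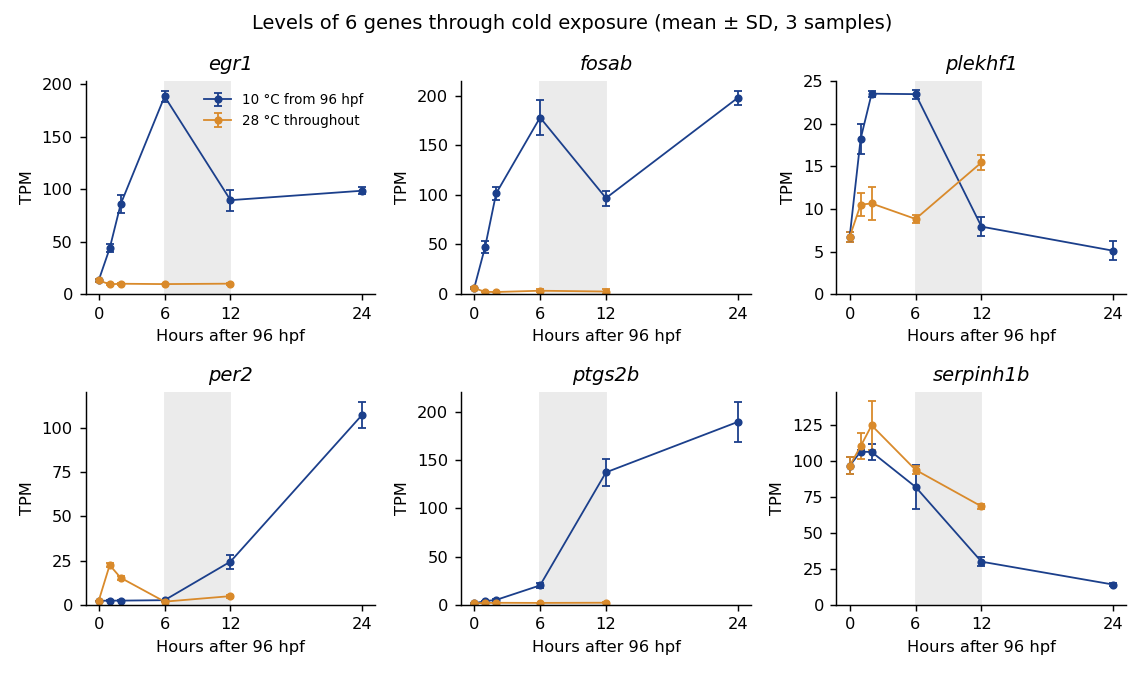
Mean TPM ± SD of 3 samples for 6 genes over the hours after 96 hpf, at 10 °C (blue) and at 28 °C (orange), with the step from 6 to 12 h shaded. egr1, fosab and plekhf1 climb before the step and drop within it. per2 turns up within it, and ptgs2b, already above untreated larvae at 6 h, rises further. serpinh1b falls through the step to 14.1 TPM after 24 h.

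Genes of NF-kB signaling and inflammation also rose. Of 38 expressed subunits, inhibitors and adaptors 11 rose and 1 fell, also under both other scalings. The risers include traf6, trim8a and otud1, which the study had already named from its time course, so the count is partly set by the choice of members. Of the same 38 genes, 11 or 12 rose with each library left out in turn, and 0 to 2 fell, with 0 without lc_6h replicate 1 and 2 without lc_6h replicate 3 or lc_12h replicate 1. The list median was only 0.07, so the calls came from a minority of its members. Of 30 cytokines, chemokines and effectors 7 rose and 1 fell, with a median of 0.32, and 4 rose without lc_6h replicate 1.

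Among the signal carriers traf3, an adaptor that holds the kinase Nik in check, had 5.82, 6.26 and 5.79 TPM after 6 h and a mean of 15.5 ± 0.492 TPM (SD, n = 3) after 12 h (log2 fold change 1.25 ± 0.11, adjusted p = 2e-11), with the groups apart. traf6, the adaptor of Toll-like and interleukin-1 receptors, rose by 0.83 on the log2 scale from 9.10 to 16.9 TPM, and map3k14a, which encodes Nik, by 0.65. Among the Rel proteins relb rose by 0.79 on the log2 scale, rel by 0.96, from 19.6 to 39.1 TPM, and nfkb2, a symbol of 2 gene IDs, by 1.15. Some inhibitors rose in the same samples, while most members of the list were not called. tnfaip3, the deubiquitinase A20 that shuts the pathway off, had 8.34, 9.40 and 8.95 TPM after 6 h and 21.4, 22.2 and 25.1 TPM after 12 h (log2 fold change 1.27 ± 0.18, adjusted p = 9.6e-07), and tnip2, an A20 partner, rose by 0.67. trim8a, a ubiquitin ligase gene, rose by 0.65 on the log2 scale and the deubiquitinase gene otud1 by 0.81. The atypical inhibitors parted, with bcl3 at 0.366, 0.910 and 0.311 TPM after 6 h and 1.78, 1.66 and 1.96 TPM after 12 h and nfkbiz at 8.19, 4.54 and 5.37 TPM after 6 h and 2.80, 2.62 and 4.17 TPM after 12 h. Log2 fold changes were 0.89 for the first and -0.73 for the second, the only faller of the list. The fall of nfkbiz was lost without lc_6h replicate 1. rel, nfkb2, tnfaip3, tnip2, bcl3 and nfkbiz were chosen after their values were seen.

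ptgs2b, a gene for cyclooxygenase-2, the inducible enzyme of prostaglandin synthesis, led the effectors. It had 18.7, 18.4 and 23.2 TPM after 6 h and 122, 141 and 149 TPM after 12 h (log2 fold change 2.71 ± 0.15, adjusted p = 1.7e-16), and the levels were 6.83-fold apart. At 28 °C it stayed near 1.95 and 2.15 TPM, so the cold step exceeded the untreated one by 2.62 ± 0.22 on the log2 scale (adjusted p = 2.5e-11). il34, a ligand of the macrophage receptor Csf1r, had 3.31, 3.79 and 2.64 TPM after 6 h and 7.52, 6.65 and 6.46 TPM after 12 h (log2 fold change 0.90 ± 0.15, adjusted p = 2.4e-05). il11b was listed at 0 in all 3 lc_6h samples and at 0.813, 1.49 and 0.959 TPM after 12 h, and its copy il11a, chosen after its values were seen, had 0.0325, 0.0321 and 0.0583 TPM after 6 h and 0.633, 0.598 and 0.786 TPM after 12 h. Both interleukin-11 genes were at low levels, and both groups of samples were fully apart. tnfrsf1a, a receptor of tumour necrosis factor, rose by 0.78, while tnfb, a gene for the factor itself, had 7.48, 7.17 and 11.8 TPM after 6 h and 4.09, 4.09 and 5.50 TPM after 12 h (log2 fold change -0.80 ± 0.21, adjusted p = 0.0049). The fall of tnfb was lost without lc_6h replicate 3, its highest sample. The matrix protease gene mmp13a (log2 fold change 1.56 ± 0.53) and the chemokine gene cxcl18b (1.05 ± 0.36), chosen after their values were seen, rose with wide errors. Each of these calls was lost in at least 5 of the 6 fits with 1 library left out, and that of il11a without lc_6h replicate 1 or 2 or lc_12h replicate 3.

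The difference from the untreated step was called for 8 of the NF-kB genes as higher and 1 as lower, and for 4 and 1 of the inflammatory genes. Leaving out ctrl_102hpf replicate 2 gave 6 in place of 8, the smallest of these counts. Of 43 marker genes of neutrophils and macrophages 2 rose, mmp13a and cebpb, and 0 fell. The list median was -0.09, and the summed level was higher in every lc_12h sample, at 1067 to 1125 TPM after 6 h and 1193 to 1206 TPM after 12 h. That sum includes the rise of cebpb, which is also counted in the integrated stress response. mpx had means of 8.86 and 7.46 TPM and mpeg1.1 of 5.38 and 3.83 TPM, neither called. The part of these cells in the rises was not tested. Of 22 interferon response genes and 30 JAK-STAT genes 0 were called, where 3.06% of all expressed genes were. Under scaling by the median of ratios 2 interferon genes were called higher.

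**Figure D5:**
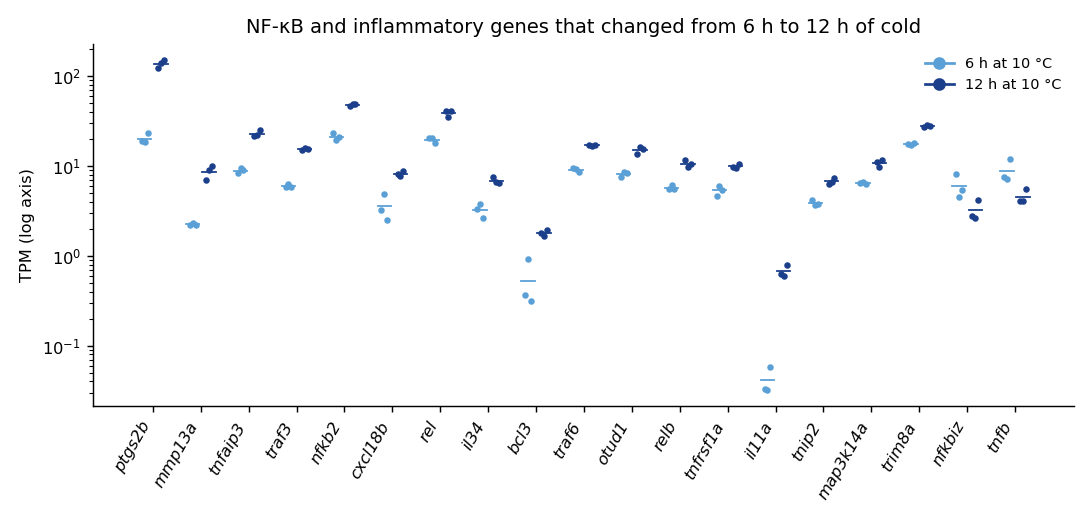
TPM (log axis) of the called genes of the NF-kB and inflammatory lists in each sample after 6 h (light blue) and 12 h (dark blue) of cold, ordered by log2 fold change; bars mark means, and il11b, listed at 0 after 6 h, is left out. ptgs2b stands highest at 122 to 149 TPM after 12 h, and nfkbiz and tnfb at the right are the 2 that fell.

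Death and survival genes of the BCL2 and caspase list rose in 4 of 35 cases and fell in 0, or in 1 without lc_6h replicate 1, lc_12h replicate 2 or lc_12h replicate 3. bbc3, which encodes the killer protein Puma, had 5.28, 6.33 and 5.54 TPM after 6 h and 14.8, 15.4 and 15.8 TPM after 12 h (log2 fold change 1.28 ± 0.09, adjusted p = 3.9e-14), with tight and separate groups. apaf1, the scaffold on which caspase-9 is activated, had 7.56, 6.61 and 7.04 TPM after 6 h and 13.1, 12.1 and 12.6 TPM after 12 h (log2 fold change 0.75 ± 0.07, adjusted p = 9.5e-11). cflara, an inhibitor of caspase-8, rose by 0.66 on the log2 scale, a call lost without lc_12h replicate 3. casp8l2, a caspase-8-like gene, rose by 0.95 on the log2 scale from samples as far apart as 3.15, 1.57 and 0.762 TPM, lost without lc_6h replicate 3. mcl1b, a survival gene of the same family, had means of 44.8 and 45.1 TPM and was not called (log2 fold change 0.01). In the integrated stress response 4 of 28 genes rose and 0 fell, and both other scalings gave the same counts although ppp1r15a lost its call under quantile normalization. trib3, a pseudokinase induced by Chop, had 43.5, 46.8 and 44.1 TPM after 6 h and 71.5, 76.7 and 80.8 TPM after 12 h (log2 fold change 0.75 ± 0.08, adjusted p = 1.7e-09). The transcription factor gene cebpb rose by 0.74 on the log2 scale from 75.1 TPM, sesn2, a brake on mTORC1, by 0.69, and ppp1r15a, the eIF2 phosphatase subunit that ends the response, by 0.61 from 74.0 to 113 TPM. herpud1, an endoplasmic reticulum gene, was not called (0.35), nor was any of 40 chaperones and sensors of that compartment, with a list median of -0.05. Over all expressed genes 3.06% were called.

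Genes tied to fasting and FoxO factors rose in 5 of 37 cases and fell in 1, with a median of 0.23; quantile normalization gave 3 risers, as did leaving out lc_6h replicate 3. Besides per1a of the clock and the kinase gene pdk2b, both chosen after their values were seen, irs2a, an adaptor of the insulin receptor, rose by 0.64 on the log2 scale and its relative irs4a by 0.60, the latter lost without lc_6h replicate 3 or lc_12h replicate 2. The call of pdk2b was lost without lc_6h replicate 1 or 3 or lc_12h replicate 3. FoxO genes themselves did not pass, with foxo1b at 0.45 on the log2 scale from a mean of 1.63 TPM and foxo4 at 0.09. Over the alternatives foxo1b ranged from 0.37 to 0.64 on the log2 scale, on both sides of the fold threshold of 0.58, and foxo4 from 0.01 to 0.15. The list also held a divided pair. txnipa, for a thioredoxin-binding protein that curbs glucose uptake, had 404, 421 and 424 TPM after 6 h and 648, 639.8 and 643 TPM after 12 h (log2 fold change 0.63 ± 0.05, adjusted p = 7.5e-12). Its duplicate txnipb had 16.7, 17.9 and 13.8 TPM after 6 h and 8.51, 9.07 and 9.86 TPM after 12 h (log2 fold change -0.75 ± 0.10, adjusted p = 6e-07). The abundant copy was higher and the scarce one lower, although the rise of txnipa fell below the fold under quantile normalization. Of 54 autophagy genes 2 rose, the cargo receptor gene sqstm1 by 0.87 on the log2 scale, from 53.6 to 98.8 TPM, and tfe3a, for a factor that drives lysosome genes, by 0.60, lost without lc_6h replicate 2, lc_12h replicate 2 or lc_12h replicate 3. Of 37 oxidative stress genes 2 rose, hmox1a, for the heme-degrading enzyme, with 15.1, 9.96 and 12.0 TPM after 6 h and 30.1, 27.4 and 27.4 TPM after 12 h (log2 fold change 1.15 ± 0.14, adjusted p = 3.6e-08), and nfe2l2b, of the Nrf2 family, by 0.64, lost without lc_12h replicate 3. mafk, whose small Maf protein pairs with Nrf2, was among the 15 largest rises with 2.59, 4.15 and 3.56 TPM after 6 h and 12.3, 12.0 and 16.5 TPM after 12 h (log2 fold change 1.72 ± 0.24, adjusted p = 6.8e-07). sqstm1, tfe3a, hmox1a and nfe2l2b were chosen after their values were seen.

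Chaperones of the cytosol and mitochondria gave 4 risers and 2 fallers among 51, or 4 and 1 under quantile normalization and 5 and 1 under the median of ratios, and without lc_6h replicate 2 there were 2 and 1. Without lc_6h replicate 3, lc_12h replicate 2 or lc_12h replicate 3 the fallers numbered 1. hsf2, for a heat shock transcription factor, had 13.9, 16.1 and 16.0 TPM after 6 h and 31.8, 36.5 and 30.3 TPM after 12 h (log2 fold change 1.05 ± 0.08, adjusted p = 1e-12). The small heat shock gene hspb11 rose by 0.82 on the log2 scale, and the inducible hsp70.3 by 0.90 ± 0.26, the latter lost without lc_6h replicate 2 or lc_12h replicate 1. hsph1, of the Hsp110 family and chosen after its values were seen, was the fourth riser (log2 fold change 0.63), lost in 4 of the 6 fits with 1 library left out. dnaja1, an Hsp70 partner, fell by 0.60 on the log2 scale, a call lost under both other scalings and without lc_6h replicate 2 or 3 or lc_12h replicate 2 or 3. The deepest fall of the list was in serpinh1b, which encodes Hsp47, the collagen chaperone. It had 75.7, 71.4 and 99.4 TPM after 6 h and 28.7, 27.9 and 33.6 TPM after 12 h (log2 fold change -1.41 ± 0.11, adjusted p = 1.8e-12). It was at 107 TPM after 2 h and at 14.1 ± 1.21 TPM after 24 h of cold, and in untreated larvae it went from 94.0 to 68.6 TPM without a call. It was the only called gene of 64 for collagens and their maturation.

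Lipid genes moved on both sides. In the sterol list, with 3 risers and 1 faller of 33 under each scaling, ldlra, the receptor that takes up lipoprotein cholesterol, had 20.1, 21.5 and 22.2 TPM after 6 h and 44.5, 43.6 and 50.5 TPM after 12 h (log2 fold change 1.08 ± 0.07, adjusted p = 2.7e-14). mylipa, which marks that receptor for destruction, rose by 0.88 on the log2 scale from 10.6 to 20.3 TPM, and insig1, a brake on sterol synthesis, by 0.72. mvda, an enzyme of the mevalonate pathway, had 12.2, 11.4 and 10.7 TPM after 6 h and 5.81, 6.51 and 4.85 TPM after 12 h (log2 fold change -0.89 ± 0.16, adjusted p = 6.8e-05). Of 26 desaturases and elongases scd, for the enzyme that makes monounsaturated fatty acids, rose by 1.02 on the log2 scale from a mean of 1.46 TPM, and elovl7a and elovl8a fell by 0.66 and 0.67. The call of elovl7a was lost without lc_6h replicate 1 or lc_12h replicate 2, and that of elovl8a without lc_6h replicate 2, lc_12h replicate 1 or lc_12h replicate 2 and under quantile normalization, so that leaving out lc_12h replicate 2 gave 0 fallers and leaving out lc_6h replicate 1, lc_6h replicate 2 or lc_12h replicate 1 gave 1. Without lc_6h replicate 3, lc_12h replicate 1 or lc_12h replicate 3, 2 of the 26 rose. In the liver list 0 of 65 rose and 3 fell, or 2 under both other scalings, 2 of them enzymes of bile acid synthesis. cyp7a1, the rate-limiting enzyme of that pathway, had 8.67, 10.5 and 12.7 TPM after 6 h and 4.04, 3.89 and 4.97 TPM after 12 h (log2 fold change -1.12 ± 0.11, adjusted p = 6.1e-10), and cyp8b1 fell by 0.65, lost without lc_12h replicate 2. tdo2a, for the tryptophan-degrading enzyme, was the third at -0.59 on the log2 scale and was below the threshold under both other scalings and without lc_6h replicate 2 or lc_12h replicate 1. The summed level of the list was 13967 to 15169 TPM after 6 h and 15900.0 to 16785 TPM after 12 h, with a list median of 0.06. ch25hl1.1, a cholesterol 25-hydroxylase-like gene outside these lists, was among the 15 largest falls with 7.20, 8.54 and 6.78 TPM after 6 h and 2.59, 1.87 and 3.24 TPM after 12 h (log2 fold change -1.27 ± 0.15, adjusted p = 3.3e-08).

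Of 74 genes of DNA replication and the cell cycle 4 rose and 0 fell under each scaling, with a list median of -0.04. cdc6 and cdt1 load the replicative helicase at origins: cdt1 had 6.32, 6.08 and 6.89 TPM after 6 h and 10.8, 11.7 and 12.0 TPM after 12 h (log2 fold change 0.75 ± 0.08, adjusted p = 5.9e-09), and cdc6, a symbol of 2 gene IDs, rose by 0.75, a call lost when the TPM of both IDs were summed. e2f7, with 6.60, 7.13 and 5.04 TPM after 6 h and 13.1, 14.1 and 11.4 TPM after 12 h (log2 fold change 0.94 ± 0.11, adjusted p = 3.6e-08), and e2f8, which rose by 0.80, encode atypical E2F factors that repress cell cycle genes. In Notch signaling 0 of 40 rose and 3 fell, all of them repressors of neurogenesis of the her family. her4.2 had 14.9, 14.9 and 15.9 TPM after 6 h and 10.4, 8.29 and 8.95 TPM after 12 h (log2 fold change -0.67 ± 0.09, adjusted p = 4.5e-07), her4.4 fell by 0.70 (lost without lc_12h replicate 1) and her8a by 0.73. Each was already below its level at 96 hpf, and her8a was at 12.5 TPM then and 4.73 TPM after 6 h of cold. The her4 genes are close copies between which reads could have been split, and the call of her4.2 was lost when the TPM of its 2 gene IDs were summed. Of 51 genes of neural progenitors 1 rose and 2 fell, and both other scalings gave 1 and 1. The share called was 5.88%, where 3.06% of all expressed genes were called. The retinal homeobox gene rx1 rose by 0.76 on the log2 scale, while its relative rx2 fell by 0.72. lhx2b, another homeobox gene of the developing eye and forebrain, fell by 0.59 on the log2 scale, a call lost under both other scalings and without lc_6h replicate 2, lc_12h replicate 1 or lc_12h replicate 3.

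Epithelial genes gave 4 risers and 0 fallers among 43 claudins and tight junction genes under each scaling, with 1 faller when lc_6h replicate 3 or lc_12h replicate 3 was left out. cldnb, the most abundant of the 4, had 312, 297 and 318 TPM after 6 h and 479, 520.0 and 547 TPM after 12 h (log2 fold change 0.73 ± 0.10, adjusted p = 3.5e-07). cldne rose by 0.68 on the log2 scale, cldn23a by 0.82 and cldn7b, a symbol of 2 gene IDs, by 0.89. All are claudins, the proteins that seal the space between epithelial cells. Of 49 genes of the keratin and desmosome list of the epidermis 1 rose and 1 fell, close to the shares over all expressed genes. The list median was -0.01, and the median of ratios gave 2 risers and 1 faller. The riser cdh1, for E-cadherin, the adhesion protein of epithelia, rose by 0.78 on the log2 scale. The faller tp63, the regulator of epidermal stem cells, fell by 0.70, and both were chosen after their values were seen. Of 32 endothelial genes 2 fell, the apelin receptor genes aplnra (log2 fold change -0.63) and aplnrb (-0.78), also chosen afterwards, and aplnra was not called under the other scalings. In the hypoxia list higd1a, for a mitochondrial protein, rose by 0.72 on the log2 scale and ndrg1b by 0.63, where the median of ratios gave 4 risers and quantile normalization 3, as against 4 without lc_12h replicate 1. ca9, a carbonic anhydrase gene, fell by 0.72 on the log2 scale, a call lost without lc_6h replicate 3 or lc_12h replicate 1.

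No gene was called in several of the lists. Over all expressed genes 3.06% were called, so 0 calls in the smaller of these lists is close to the background. Of 81 cytosolic ribosomal protein genes, 81 nuclear genes of oxidative phosphorylation, 44 of the proteasome, 50 of SR proteins and hnRNPs, 71 of the muscle sarcomere, 23 of cardiac muscle and 30 of ionocytes and mucous cells 0 were called, with list medians between -0.07 and 0.01. The ribosomal protein genes ranged from -0.25 to 0.15. The summed level of the oxidative phosphorylation genes was lower in every lc_12h sample, at 28472 to 28938 TPM after 6 h and 27330 to 27779 TPM after 12 h. In the other lists just named the sums of the groups overlapped. Of 45 genes for histone acetyltransferases and methyltransferases 0 were called either, with single genes from -0.41 to 0.46. Their summed level was higher in every lc_12h sample, at 503 to 528 TPM after 6 h and 533 to 556 TPM after 12 h.

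Genes of the exocrine pancreas gave no call in the cold, while several rose in untreated larvae. Of 21 expressed genes of the exocrine pancreas 0 were called between 6 and 12 h of cold (median -0.20), whereas at 28 °C 7 rose and 0 fell (median 0.54), or 1 rose under the median of ratios and 7 under quantile normalization, and the difference was called lower for 13, or 7 under the median of ratios and 13 under quantile normalization. Trypsinogen gene prss1 had 889, 1029 and 1069 TPM after 6 h and 800.3, 750.5 and 1165 TPM after 12 h. At 28 °C it had 1964, 1621 and 1618 TPM at 102 hpf and 2517, 2794 and 2548 TPM at 108 hpf, so the untreated groups were apart and above every cold sample, and the cold ones overlapped. The difference was -0.76 ± 0.18 on the log2 scale for prss1 (adjusted p = 0.0041) and largest for pla2g1b, a phospholipase gene, at -1.34 ± 0.36 (adjusted p = 0.01). The counts for this organ rest on few libraries. lc_12h replicate 3 had the highest prss1 value of the 6, and without it 3 pancreas genes fell in the cold and 15 differed. Without lc_12h replicate 2, 6 differed, without lc_12h replicate 1, lc_6h replicate 3 or ctrl_102hpf replicate 2 there were 8, and without ctrl_102hpf replicate 2 or ctrl_108hpf replicate 2 0 rose at 28 °C, against 1 without ctrl_102hpf replicate 3, 4 without ctrl_108hpf replicate 1 and 11 without ctrl_102hpf replicate 1. Of 30 intestinal genes 0 were called in the cold and 8 had a lower step than at 28 °C, 4 of 30 without lc_12h replicate 2, 5 without ctrl_108hpf replicate 2 4 under the median of ratios and 6 under quantile normalization. Without lc_12h replicate 3, 4 fell in the cold. slc15a1b, a peptide transporter gene, went from 17.7 to 12.7 TPM in the cold (log2 fold change -0.48, not called) and from 29.6 to 42.6 TPM at 28 °C, a difference that passed the test (adjusted p = 0.00012). Members of both organ lists were chosen for display after their values were seen.

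Over all expressed genes the difference between the steps was called higher for 309 and lower for 763. Its median was -0.11, and scaling by the median of ratios shifts that median by 0.11 and turns the counts to 556 higher and 374 lower. Quantile normalization gave 483 higher and 364 lower. Of the 379 genes that rose in the cold 9 rose and 3 fell at 28 °C, and of the 397 that fell 3 fell and 3 rose. The 3 that rose in the cold and fell at 28 °C were per1b, cry1b and CU929206.2, a clone-named gene under 2 TPM whose call was lost without lc_6h replicate 1 or any lc_12h replicate. Those that fell in the cold and rose at 28 °C were plekhf1, cpo and si:dkey-30j22.1. plekhf1 encodes a lysosomal protein with a PH and a FYVE domain and had 23.6, 22.9 and 23.9 TPM after 6 h and 7.07, 9.19 and 7.51 TPM after 12 h (log2 fold change -1.46 ± 0.14, adjusted p = 1.7e-10). It had climbed from 6.71 TPM at 96 hpf to 23.5 TPM after 2 h of cold, then dropped 2.96-fold, while untreated larvae went from 8.82 to 15.5 TPM, a difference of -2.21 ± 0.19 on the log2 scale (adjusted p = 1.5e-10). Its second gene ID had 35.8, 25.4 and 39.3 TPM after 6 h and 8.39, 11.6 and 13.6 TPM after 12 h, a fall that was also called, and was not called at 28 °C. cpo, a carboxypeptidase gene, had a log2 fold change of -0.62 ± 0.17 in the cold, a call lost under both other scalings and without lc_6h replicate 2 or lc_12h replicate 1, and rose by 1.04 at 28 °C.

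Among the 15 largest rises 6 were gene IDs at 0 in at least 2 of the 3 lc_6h samples, 4 of them copies of 5S ribosomal RNA (RF00001), with U2 RNA (RF00004) and arpp19a. RF00001 has 74 gene IDs, and reads of such copies could have been split, so no fold is given for them. The call of arpp19a was lost in 5 of the 6 fits with 1 library left out, that of RF00004 without lc_12h replicate 1 or 2 and that of 1 copy of RF00001 without lc_6h replicate 1 or 3. lonrf1l, for a protein with LON and RING domains, had 11.8, 12.9 and 20.5 TPM after 6 h and 58.6, 63.6 and 62.3 TPM after 12 h (log2 fold change 2.00 ± 0.16, adjusted p = 3.6e-12), and btr01, of a fish family of ubiquitin ligases, had 3.39, 4.04 and 3.35 TPM after 6 h and 18.7, 10.2 and 11.9 TPM after 12 h (log2 fold change 1.63 ± 0.40, adjusted p = 0.0032). Among the 15 largest falls RF00092, rcvrna, atp6v0d1 and gsta.2 were listed at 0 in at least 1 lc_12h sample, and these 4, with dlg3 and prmt9, lost their calls in at least 6 alternatives each. opn6b, a non-visual opsin gene, kept its call in every alternative run, with 6.96, 7.59 and 6.18 TPM after 6 h and 2.42, 2.20 and 2.89 TPM after 12 h (log2 fold change -1.17 ± 0.11, adjusted p = 9.6e-11). ZBTB26, a zinc finger gene, had 6.25, 6.44 and 10.1 TPM after 6 h and 2.49, 2.72 and 2.14 TPM after 12 h (log2 fold change -1.29 ± 0.33, adjusted p = 0.0039).

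Genes that the study names, in its time course or its inhibitor experiment, and that are not given above had these values. dusp5, for the phosphatase that switches off nuclear Erk, had 22.9, 21.4 and 21.2 TPM after 6 h and 41.7, 35.8 and 42.7 TPM after 12 h (log2 fold change 0.84 ± 0.14, adjusted p = 1.9e-05). Its groups were apart, and it is a symbol of 2 gene IDs. plekhn1 rose by 0.83 on the log2 scale from 3.72 to 7.38 TPM. dusp2 (log2 fold change -0.21), klf2b (0.01), pim2 (0.03), gadd45bb (0.22) and tagapa (0.06) were not called. Nor was tnfsf10, the ligand Trail, whose 5.85, 6.02 and 6.03 TPM after 6 h and 3.95, 4.28 and 3.21 TPM after 12 h passed the p (8.5e-06) but not the fold (log2 fold change -0.54). Over the alternatives tnfsf10 ranged from -0.64 to -0.45 on the log2 scale, on both sides of the fold threshold.

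The genes that moved in this step were for the most part also apart after 24 h of cold, in samples the comparison did not use. At 24 h, against 96 hpf, 9.3% of expressed genes were higher and 24.3% were lower. No untreated group of the same age was collected, so the comparison at 24 h also spans 24 h of age. Of the 379 risers 332 (87.6% of them, 14.1% of the 2361 genes higher at 24 h) were higher there, with a median of 1.39, and 4 were lower. Of the 397 fallers 316 (79.6%, and 5.13% of the 6157 lower at 24 h) were lower, with a median of -1.24, and 14 were higher. Fewer had been called early in the cold. After 2 h, against 98 hpf, 0.906% of genes were higher and 0.232% lower, and 30 of the risers (7.92%, and 13% of the 230 higher at 2 h) were higher by then and 7 (1.85%) lower, per2, cry1a and cry3b among the 7. Of the fallers 14 (3.53%) were higher at 2 h and 4 (1.01%) lower, and egr1, fosab and npas4a were among the 14.

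A part of the risers was also higher in survivors sorted as abnormal. Between er_ab and er_nor 5.58% of expressed genes were higher and 4.74% lower. Of the risers 127 (33.5%, and 8.97% of the 1416 higher) were higher in the abnormal larvae and 5 lower, and of the fallers 36 (9.07%) were lower and 16 higher. fosl1a stood at 34.2 ± 11.8 and 2.70 ± 0.539 TPM in abnormal and normal larvae (SD, n = 3), cebpb at 143 and 23.2 TPM and bbc3 at 13.2 and 4.78 TPM. For per2 the means were 27.4 and 27.9 TPM, without a call. After 24 h of rewarming, against 132 hpf, where 4.75% of genes were higher and 1.34% lower, 36 of the risers were higher and 18 lower, and of the fallers 28 were higher and 5 lower. ptgs2b was then at 1.99 ± 0.226 TPM (SD, n = 3), against an untreated mean of 1.68 TPM at 132 hpf.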

How the data were processed

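RNA of whole AB larvae was sequenced by the authors, who mapped reads to zebrafish cDNA with Salmon 0.13.1, corrected for GC, sequence and position bias, and summed transcripts to genes with tximport. The deposited table holds TPM of 30097 genes in 54 samples, 3 per group. TPM summed to 998978 to 999193 in each of the 6 samples and keeps no depth, so no count test was run.

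Here log2(TPM + 1) was fitted with limma 3.58.1 in R 4.3.3 as 18 group means over all 54 samples (36 residual degrees of freedom, mean-variance trend) for the 25387 expressed genes, with Benjamini-Hochberg adjustment over all of them. The script was tested on simulated data. The same fit gave the untreated step, the difference between the steps, and the comparisons at 2 h, 24 h, rewarming and survivors, and apart from the difference none of these shares samples with lc_6h or lc_12h. Genes were named as the 15 largest calls in each direction (mean of at least 5 TPM, groups apart, no clone names), at most 5 members per list with 3 or more calls, by adjusted p, genes named in the study's account, and genes called in opposite directions in the cold and at 28 °C. The comparison, the 52 gene lists and these rules were chosen with earlier results of these data known. Alternatives were pseudocounts of 0.1 and 0.5, no filter or 5 TPM, both scalings, a fit of the compared groups alone, no trend, stricter thresholds, a replicate block and leaving out each replicate. Replicate numbers did not pair the samples. Columns of the table's other groups entered the shared spread, the expression filter and the choice of 1 gene ID per symbol in the lists.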

Additional observations from a re-analysis of the deposited data

Results flagged for a closer look

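The results below stand here because the change from 6 to 12 h of cold differed from that of untreated larvae over the same ages (102 to 108 hpf), by the test of the difference itself with limma. Over all expressed genes the cold step was higher for 309 (1.22%) and lower for 763 (3.01%), a split that turned with the scaling. These shares are the background for the list counts below.

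Among the lists, the cold step was higher for 15 clock genes and lower for 2, higher for 8 of NF-kB signaling and lower for 1, and higher for 4 inflammatory genes and lower for 1. It was higher for 6 genes of DNA replication and the cell cycle and lower for 0, with 9 higher under the median of ratios. Chaperones gave 4 higher and 2 lower (7 and 1 under the median of ratios), the BCL2 and caspase list 3 and 2 (5 and 2), the FoxO list 3 and 1 (9 and 1, or 5 and 1 under quantile normalization), the claudin list 3 and 1 (5 and 0) and the sterol list 3 and 1 under each scaling. Immediate early genes gave 3 higher and 3 lower (5 and 3). The cold step was lower for 13 genes of the exocrine pancreas (7 under the median of ratios), 8 of the intestine (4), 4 of Notch signaling (1), 3 of the hypoxia list (1, with 3 higher), 3 of the liver list (cyp7a1, cyp3a65 and tdo2a) and 3 of the endothelium (tie1, aplnra and aplnrb), the last 2 lists each giving 2 under the median of ratios. The photoreceptor list gave 3 higher (pde6ha, rcvrn3 and guca1e) and 4 lower (cnga3a, lrata, crx and impg1a), or 3 and 2 under the median of ratios. Expressed members numbered 65 in the liver list, 57 in the photoreceptor list, 34 in the hypoxia list and 32 in the endothelium list. Set against 3.01% of all expressed genes, the 3 lower genes of the liver list were close to the background. Whether any list as a whole exceeded the background was not tested.

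Of the named genes 43 had a higher cold step and 22 a lower one. What follows covers these named genes only, without RF symbols, so genes outside the naming rule such as bhlhe40 and nfil3-6 are not in it. Differences on the log2 scale of at least 1 were, among clock genes, 2.39 for rorcb, 2.17 for cry2, 1.73 for per2, 1.58 for per1b, 1.49 for per3 and 1.42 for cry1b. Among inflammatory and death genes they were 2.62 for ptgs2b, 1.15 for traf3, 1.14 for bbc3, 1.13 for il34 and 1 for il11b, which was listed at 0 after 6 h so that its value depends on the pseudocount. Among chaperone, cell cycle and other risers they were 2.16 for btr01, 1.94 for lonrf1l, 1.64 for CU929206.2, 1.35 for mafk, 1.14 for e2f8, 1.14 for hsp70.3 and 1.05 for hsf2. The lower ones were -2.21 and -1.89 for the 2 gene IDs of plekhf1, -1.66 for cpo, -1.53 for ch25hl1.1, -1.53 for si:dkey-30j22.1, -1.21 for cyp7a1, -1.14 and -1.12 for the 2 gene IDs of egr1, -1.06 for her4.2 and -1 for opn6b.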

How the results depend on the processing

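No named gene that was called reversed direction under any alternative. Uncalled ones with values near 0, such as mcl1b (-0.03 to 0.10 on the log2 scale) and klf2b (-0.04 to 0.08), changed sign. Some uncalled named genes gained a call, 2 with a pseudocount of 0.1, 1 with 0.5 and 1 without lc_12h replicate 2. The balance of higher and lower calls for the difference between the steps turned with the scaling. So did that of the immediate early genes (4 risers and 7 fallers, or 5 and 4 under the median of ratios). Against 379 risers and 397 fallers in the cold step, a pseudocount of 0.1 gave 470 and 843, and 0.5 gave 423 and 607. Quantile normalization gave 467 and 260, and a fold of at least 2 gave 76 and 48. Leaving out 1 library gave 353 to 425 risers and 365 to 494 fallers. Against 309 higher and 763 lower for the difference between the steps, the median of ratios gave 556 and 374, quantile normalization 483 and 364, an adjusted p of at most 0.01 gave 466 lower, a fold of at least 2 gave 91 and 113, and leaving out 1 library gave 270.0 to 332 and 656 to 861. Against 92 risers and 47 fallers in untreated larvae, the median of ratios gave 52 risers and quantile normalization 56, a fit of the compared groups alone 21 and 10, an adjusted p of at most 0.01 gave 47 and 26, a fold of at least 2 gave 18 and 20, and leaving out 1 library gave 59 to 94 risers (59 without ctrl_108hpf replicate 2) and 31 to 40 fallers (31 without ctrl_102hpf replicate 3 or ctrl_108hpf replicate 2).

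Samples of the same replicate number did not deviate together (correlations of -0.013, 0.010 and -0.012 between lc_6h and lc_12h). With a replicate block over all samples 378 genes rose and 394 fell, the difference gave 313 and 758 and untreated larvae 95 and 48. With the block and the compared groups alone 248 rose and 141 fell, and in untreated larvae 0 and 0.

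Of 99 named calls, a fold of at least 2 removed 58, the block within the compared groups 32, a fit of those groups alone 16, quantile normalization 8, the median of ratios 5 and leaving out 1 library 9 to 16. Chosen after seeing the data, summing the gene IDs of a symbol gave 359 and 368, and leaving out gene IDs listed at 0 gave 358 and 380. The share of risers also higher at 24 h ranged from 78.9 to 92.4% and that of fallers also lower from 58.3 to 87.6%. The cause of these differences was not tested.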

Other observations

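Some genes outside the naming rule moved with relatives or partners, and all of them were chosen after their values were seen. plk4 and cenpj, which encode a kinase and a scaffold of centriole duplication, rose by 1.12 and 0.93 on the log2 scale, plk4 from a mean of 3.56 to 8.92 TPM. The linker histone genes h1f0 and histh1l rose by 0.66 and 0.80 on the log2 scale, and the enhancer of polycomb genes epc1b and epc2 by 0.80 and 0.90. odc1, the first enzyme of polyamine synthesis, had 52.5, 55.5 and 62.2 TPM after 6 h and 120.4, 143 and 142 TPM after 12 h (log2 fold change 1.24 ± 0.13, adjusted p = 1.7e-09), with the groups apart. The catabolic enzymes of vitamin D and retinoic acid, cyp24a1 and cyp26a1, rose by 1.27 and 0.97 on the log2 scale. plek2, for a pleckstrin, had the largest log2 fold change of the genes in this paragraph, with means of 5.92 and 18.9 TPM (log2 fold change 1.53 ± 0.17, adjusted p = 1.8e-08). Among the fallers were both twist1a and twist2, mesenchymal transcription factors (log2 fold changes -0.80 and -0.68, the latter lost without lc_6h replicate 1), prox1a of the lymphatic vessels, liver and lens (-0.69), and the somatostatin gene sst1.1 (-0.80).

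Of 1883 pairs of duplicate genes named with a and b, both expressed, 105 had at least 1 copy called. Over all expressed genes 3.06% were called, and a pair counted when either copy was. Whether duplicates were called more or less often than other genes was not tested. In 6 pairs both copies rose, in 1 both fell (aplnra and aplnrb) and in 1 they went opposite ways (txnipa and txnipb). The pair znf395a and znf395b were among the 6.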
